A study of Rattus norvegicus with 10 samples.

Results

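The 10 amino acid transporter and ATF4 target genes Slc3a2, Slc7a1, Slc7a5, Slc7a11, Slc38a2, Slc1a4, Slc1a5, Asns, Psat1 and Chac1 were followed in pancreatic islets of rats, the endocrine tissue that holds the insulin-secreting β-cells. The genes were listed by name, with earlier results of these data known. Every probeset with 1 platform gene symbol equal to one of these names was used. That gave 12 of 31042 non-control probesets and 10 of 14217 genes: 3 probesets for Slc7a1 and 1 for each of the other genes. The rats were male Wistar animals aged 7 weeks that ate either standard chow, with 8% of calories as fat, or a cafeteria diet, with 66% of calories as fat, for 10 days. Each diet group held 5 arrays of independent islet samples, hybridised as biotinylated cRNA to the 1-colour Affymetrix Rat Genome 230 2.0 GeneChip. Groups were taken from the array titles. On all 10 arrays the diet characteristic names the other diet, and if that field were right every direction given here would turn.

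Cells take up amino acids through carriers of the Slc families, several of which are exchangers built from a light chain and the shared heavy chain encoded by Slc3a2. When amino acids run short or the endoplasmic reticulum is under load, kinases phosphorylate the initiation factor eIF2, general translation slows and the transcription factor ATF4 is made. ATF4 then switches on transporters, enzymes of amino acid synthesis and aminoacyl-tRNA synthetases. β-cells make very large amounts of secreted protein, and amino acids also act on insulin release.

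ATF4 binds, with a C/EBP partner, to a composite element whose core can be written TGATGNAA, where N is any base. RefSeq promoter windows of assembly GRCr8, from 250 bases before to 50 bases after each gene start, were available for 9 of the 10 genes. The core was searched on both strands and was present in 3 of these 9 genes, Slc7a1, Slc1a4 and Chac1, and in 3.98% of all 33469 windows in the table. The windows with a match are shown. Between arrays, as described below, r was 0.67 for Slc7a1 and Chac1 and 0.75 for Slc7a1 and Slc1a4, but 0.43 for Slc1a4 and Chac1. For Asns and Psat1, both without a match, r was 0.76. Whether the core has a part in how these genes varied was not tested. The window of Trib3 is added because its signal followed that of Chac1 more closely than any other gene. The 250 bases before the gene start are printed 5′ to 3′ on the strand of the gene, with the core in capitals.
Slc7a1, chr12:11664238-11664487, + strand: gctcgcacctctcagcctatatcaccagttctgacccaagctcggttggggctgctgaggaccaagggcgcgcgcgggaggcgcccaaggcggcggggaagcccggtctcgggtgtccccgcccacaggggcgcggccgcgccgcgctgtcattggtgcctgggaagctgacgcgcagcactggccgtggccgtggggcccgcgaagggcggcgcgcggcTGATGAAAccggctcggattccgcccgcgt
Slc1a4, chr14:98761563-98761812, - strand: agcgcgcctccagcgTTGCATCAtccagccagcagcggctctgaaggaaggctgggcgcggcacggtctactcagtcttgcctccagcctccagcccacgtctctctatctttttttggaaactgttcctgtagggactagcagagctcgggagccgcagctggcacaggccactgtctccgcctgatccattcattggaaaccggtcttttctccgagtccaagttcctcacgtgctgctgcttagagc
Chac1, chr3:126795881-126796130, + strand: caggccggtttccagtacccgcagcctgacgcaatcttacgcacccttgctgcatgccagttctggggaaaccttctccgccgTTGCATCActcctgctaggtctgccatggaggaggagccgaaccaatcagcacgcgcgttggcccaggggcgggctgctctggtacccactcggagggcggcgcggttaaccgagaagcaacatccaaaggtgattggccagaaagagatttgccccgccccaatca
Trib3, chr3:161275534-161275783, - strand: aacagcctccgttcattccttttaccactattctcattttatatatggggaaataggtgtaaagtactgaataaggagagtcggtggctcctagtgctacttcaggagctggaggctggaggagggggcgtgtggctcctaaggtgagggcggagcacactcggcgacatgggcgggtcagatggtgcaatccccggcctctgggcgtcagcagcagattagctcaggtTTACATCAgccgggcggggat
In Slc7a1 the core lay on the strand of the gene and began 30 bases before the gene start. In Slc1a4, Chac1 and Trib3 it lay on the opposite strand, so that it reads as TTNCATCA, and it began 235, 167 and 21 bases before the gene start. These are matches of letters in a short window, not measured binding sites, and windows without a match say only that these letters were not found there.

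All 10 genes were measured and all passed the filter on dim signals, which kept 18625 probesets; the dimmest probeset of Slc7a1 did not pass. Median signals ran from 150.8 to 173.2 over the 10 arrays. The hormone genes that define islets were bright, with Ins1 from 15847.3 to 29185.8 and Gcg from 24583.5 to 38612.8. Of the tested markers 8 of 10 islet endocrine, 3 of 14 acinar, 0 of 12 immune, 3 of 4 duct, 4 of 7 fibroblast and 4 of 6 endothelial genes had the higher mean on cafeteria arrays, and 0 passed the adjusted test (limma; 4, 3, 2, 1, 0 and 0 at an unadjusted p under 0.05). Of all probesets tested 51.4% had the higher mean, and 10.4% had an unadjusted p under 0.05 (limma). No acinar or immune marker was listed at 0. Over 14 acinar and 14 immune genes, the mean log2 values per array ran from 9.44 to 10.64 and 7.51 to 9.14 on standard arrays and from 8.39 to 10.54 and 7.44 to 9.07 on cafeteria arrays. The ratio of 3 prime to 5 prime GAPDH signal, which rises with degraded RNA, averaged 1.16 ± 0.103 (SD, n = 5) on standard and 1.01 ± 0.0632 (SD, n = 5) on cafeteria arrays (exact two-sided permutation p = 0.0238). The same ratio for beta-actin averaged 2.81 ± 0.257 (SD, n = 5) and 2.65 ± 0.310 (SD, n = 5), with an exact permutation p of 0.405.

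None of the 10 genes passed the test for a diet difference. With limma and Benjamini-Hochberg adjustment over all 18625 probesets, 0 of the 10 genes had an adjusted p under 0.05 (lowest 0.457, for Slc38a2), against 0% of all probesets tested. Slc38a2, lower on cafeteria arrays, was the 1 gene of the 10 with an unadjusted p under 0.05. At that level stood 10.4% of all probesets, 5.51% on the higher and 4.91% on the lower side (1026 and 915 probesets; 580 and 1315 with arrays centred on their medians). Of the 10 genes 8 had the lower mean on cafeteria arrays and 2 the higher, with a median log2 difference of −0.092; of all probesets 48.6% were lower and 51.4% higher, with a median of 0.0056. Once the GAPDH ratio entered the model, the median of the 10 genes was −0.26, against −0.0068 for all probesets. That ratio itself differed between the diets, so this fit cannot fully separate it from diet. The standard error of each of the 10 genes rose, for Slc7a5 from 0.174 to 0.259. In the same fit Slc38a2, Slc7a1 and Psat1 had an unadjusted p under 0.05 (limma, 0.0101, 0.0205 and 0.0299). Their log2 differences were −0.41, −0.40 and −0.54 (SE 0.131, 0.147 and 0.213). Of all 18625 probesets 1913 reached that level in this fit, 897 of them on the lower side. By the adjusted test 0 of the 10 genes passed. No such fit was made with the beta-actin ratio, and the part of RNA quality in these differences was not tested. The 2 diet groups overlapped for every one of the 10 genes; groups did not overlap for 2.44% of all probesets. The exact two-sided permutation tests below run over the 252 divisions of the 10 arrays and cannot give a p below 0.00794. In whole islets, fewer cells of a type and less RNA per cell cannot be told apart.

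**Figure D1:**
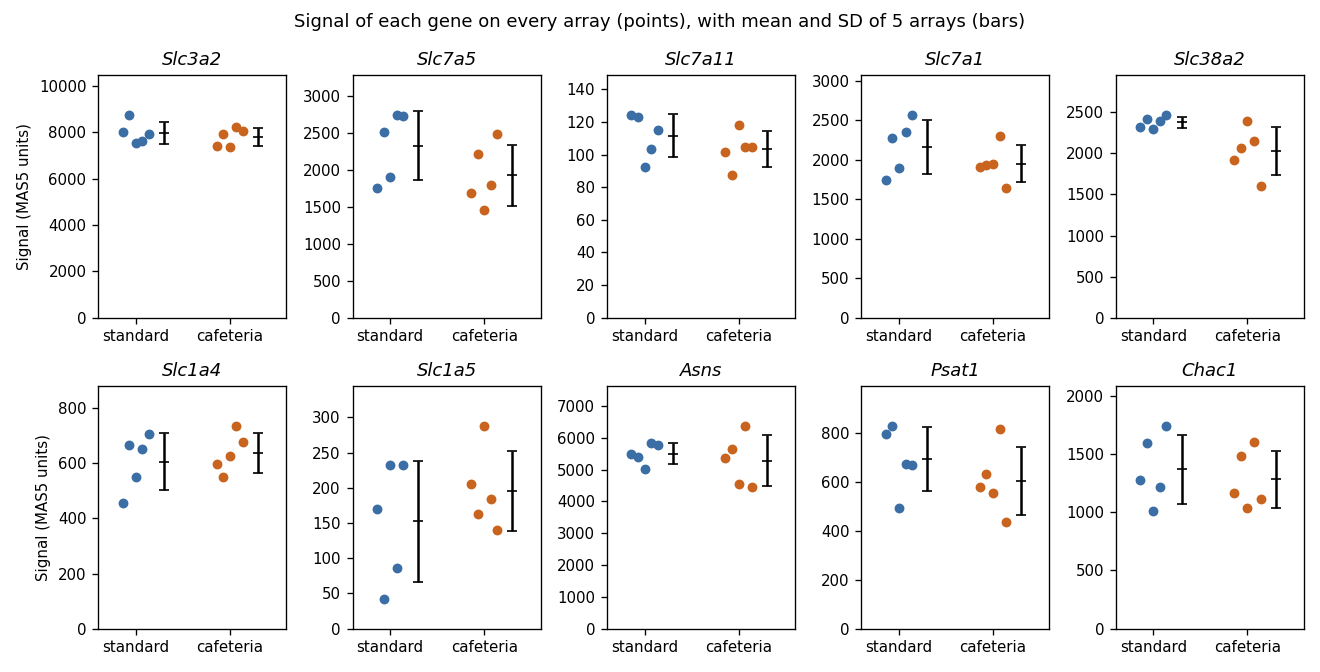
Signal of the 10 genes (brightest probeset, deposited signal units, axes from 0) on each of 5 standard and 5 cafeteria arrays as points, with the mean and SD beside them. The diet groups overlap in every panel; for Slc38a2 4 of 5 cafeteria arrays lie below all standard arrays.

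The transporters were measured at levels from very bright to dim. Slc3a2 encodes the 4F2 heavy chain, which carries several light chains to the cell surface. Its signals were 8000.4, 8731.9, 7542.9, 7624.6 and 7923.8 in standard replicates 1 to 5 and 7386.9, 7929.2, 7342.8, 8209.8 and 8069.6 in cafeteria replicates 1 to 5. The means were 7964.7 ± 470.4 (SD, n = 5) and 7787.7 ± 398.8 (SD, n = 5), giving a log2 difference of −0.032, SE 0.0733, with a 95% confidence interval from −0.19 to 0.13 (limma adjusted p = 0.892, exact permutation p = 0.524). It varied little between arrays: its within-group SD of 0.0788 on the log2 scale was at percentile 3.77 of all probesets tested, and the interval runs from 1.14-fold lower to 1.09-fold higher.

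Slc7a5 encodes LAT1, the light chain that exchanges large neutral amino acids such as leucine. The signals were 1751.3, 2505.7, 1901.7, 2735.7 and 2727.2 in standard replicates 1 to 5 and 1685.9, 2211.0, 1453.7, 1799.3 and 2481.8 in cafeteria replicates 1 to 5. The means were 2324.3 ± 466.8 (SD, n = 5) and 1926.3 ± 414.4 (SD, n = 5), giving a log2 difference of −0.27, SE 0.174, with a 95% confidence interval from −0.65 to 0.11 (limma adjusted p = 0.579, exact permutation p = 0.198). The spread was wide in both groups, with cafeteria replicates 1 and 3 below every standard array and cafeteria replicate 5 just under the 3 highest standard arrays. Without cafeteria replicate 3 the log2 difference was −0.18. Slc7a11 encodes xCT, the light chain that imports cystine in exchange for glutamate. It was dim, at percentile 42.5 of all non-control probesets with the filter at the 40th, and its signals ran from 92.6 to 124.0 on standard arrays and from 87.5 to 118.3 on cafeteria arrays. The log2 difference was −0.10 (SE 0.0994, limma adjusted p = 0.738), −0.045 without cafeteria replicate 2 and −0.15 without standard replicate 3.

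Slc7a1 encodes CAT1, a carrier of arginine and lysine. Its brightest probeset read 1741.6, 2270.0, 1891.4, 2353.1 and 2561.9 in standard replicates 1 to 5 and 1913.7, 1933.1, 1941.6, 2299.9 and 1643.5 in cafeteria replicates 1 to 5. The means were 2163.6 ± 338.4 (SD, n = 5) and 1946.4 ± 233.4 (SD, n = 5), giving a log2 difference of −0.15, SE 0.124, with a 95% confidence interval from −0.42 to 0.13 (limma adjusted p = 0.683, exact permutation p = 0.294). Cafeteria replicate 5 was the lowest of the 10 arrays and standard replicate 5 the highest. The log2 difference was −0.081 without standard replicate 5, −0.087 without cafeteria replicate 5, −0.22 without standard replicate 1 and −0.40 after adjustment for the GAPDH ratio. The next probeset of Slc7a1 differed by −0.037 (SE 0.122), also without passing, and the third stayed below the filter at signals from 5.68 to 45.1.

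Slc38a2, which encodes the sodium-coupled neutral amino acid carrier SNAT2 and is itself induced by amino acid shortage, had the lowest p of the 10 genes. Its signals were 2320.9, 2414.4, 2298.8, 2389.2 and 2462.8 in standard replicates 1 to 5 and 1924.8, 2064.9, 2392.2, 2144.5 and 1608.4 in cafeteria replicates 1 to 5. The means were 2377.2 ± 67.4 (SD, n = 5) and 2027.0 ± 289.1 (SD, n = 5), giving a log2 difference of −0.24, SE 0.101, with a 95% confidence interval from −0.46 to −0.018 (limma adjusted p = 0.457, exact permutation p = 0.0317). The standard arrays lay close together, and 4 of 5 cafeteria arrays lay below all of them; cafeteria replicate 3, at 2392.2, lay inside the standard range. The lower level amounts to 1.18-fold, and it did not pass once all probesets were taken into account. Without cafeteria replicate 5, the lowest array, the log2 difference was −0.16, and over all alternatives tried it ran from −0.41 to −0.16 with adjusted p from 0.306 to 0.705. The unadjusted p stayed under 0.05 in 12 of those 23 alternatives.

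Slc1a4 and Slc1a5 encode ASCT1 and ASCT2, exchangers of alanine, serine, cysteine and, for ASCT2, glutamine. Slc1a4 ran from 456.6 to 708.1 on standard arrays and from 549.9 to 735.8 on cafeteria arrays, with a log2 difference of 0.079 (SE 0.128, limma adjusted p = 0.843). The sign turned without standard replicate 1, to −0.016. Slc1a5 read 169.6, 41.8, 231.8, 86.0 and 232.1 in standard replicates 1 to 5 and 205.2, 162.4, 287.6, 184.7 and 139.3 in cafeteria replicates 1 to 5. The means were 152.2 ± 86.0 (SD, n = 5) and 195.9 ± 56.9 (SD, n = 5), giving a log2 difference of 0.50, SE 0.384, with a 95% confidence interval from −0.34 to 1.35 (limma adjusted p = 0.646, exact permutation p = 0.333). It had by far the widest spread of the 10 genes, with a within-group SD of 0.707 on the log2 scale at percentile 98.8 of all probesets tested, and the interval runs from 1.27-fold lower to 2.55-fold higher. The low readings were standard replicates 2 and 4; without replicate 2 the difference shrank to 0.16.

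Slc1a5 varied with markers of immune cells and with immediate early genes. After subtracting each diet group's mean, its log2 values correlated with the immune index over the 10 arrays (Pearson r = 0.83), and all 12 tested immune markers correlated positively with it, with a median r of 0.77 against −0.010 for all genes. The index of the immediate early genes, which are induced by cell stress, correlated with Slc1a5 about as closely (r = 0.80), with 9 of 9 genes positive and a median r of 0.68. For the fibroblast index r was 0.52 and for the GAPDH ratio 0.48. The immune index itself averaged 8.52 on standard and 7.86 on cafeteria arrays, the opposite direction to Slc1a5, and with that index as a covariate the Slc1a5 difference was 1.08. Cd74 and Lyz2, the brightest of the immune markers, ran from 1676.4 to 7280.4 and from 1240.3 to 8745.8. What part any of these has in the Slc1a5 signal was not tested.

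**Figure D2:**
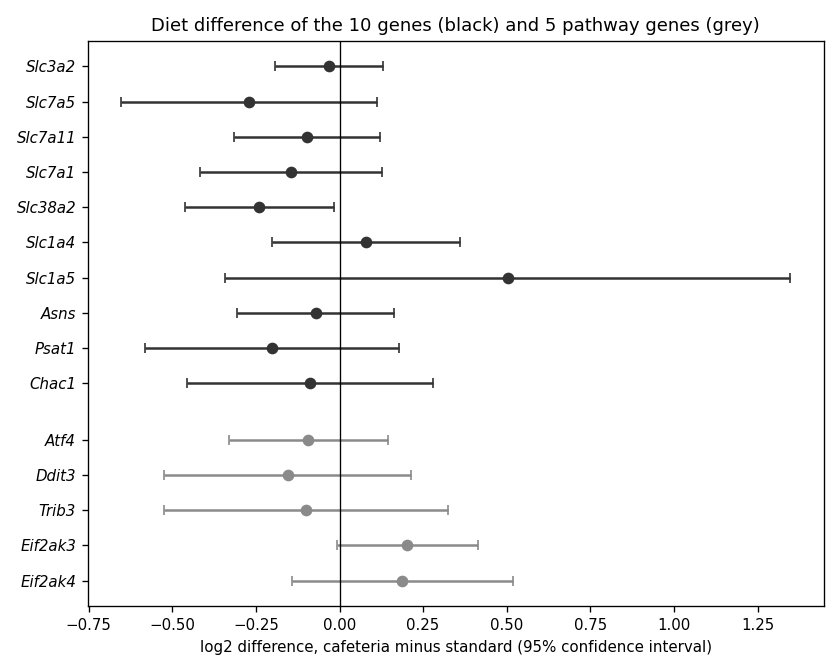
log2 difference between cafeteria and standard arrays with its 95% confidence interval (limma) for the 10 genes and for 5 pathway genes. Of the 10 genes Slc38a2 alone has an interval that leaves out 0, from −0.46 to −0.018, before adjustment over all probesets.

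Among the enzymes, Asns encodes asparagine synthetase, which makes asparagine from aspartate and glutamine and is a classic ATF4 target. Its signals were 5476.4, 5405.5, 5009.4, 5843.6 and 5780.1 in standard replicates 1 to 5 and 5350.0, 5660.6, 4558.5, 6367.9 and 4456.1 in cafeteria replicates 1 to 5. The means were 5503.0 ± 334.2 (SD, n = 5) and 5278.6 ± 795.7 (SD, n = 5), giving a log2 difference of −0.071, SE 0.107, with a 95% confidence interval from −0.31 to 0.16 (limma adjusted p = 0.831, exact permutation p = 0.516). Cafeteria arrays were both the highest and the lowest of the 10, and the interval runs from 1.24-fold lower to 1.12-fold higher. The log2 difference was −0.013 without cafeteria replicate 5 and −0.14 without cafeteria replicate 4. Psat1 encodes phosphoserine aminotransferase, the middle step of serine synthesis. It read 793.6, 827.6, 494.5, 673.9 and 670.4 in standard replicates 1 to 5 and 578.2, 630.9, 552.3, 814.7 and 436.5 in cafeteria replicates 1 to 5. The means were 692.0 ± 130.9 (SD, n = 5) and 602.5 ± 138.3 (SD, n = 5), giving a log2 difference of −0.20, SE 0.173, with a 95% confidence interval from −0.58 to 0.18 (limma adjusted p = 0.684, exact permutation p = 0.317). Its lowest array was cafeteria replicate 5, without which the difference was −0.096; it was −0.32 without cafeteria replicate 4 and −0.54 with the GAPDH ratio as a covariate.

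Chac1 encodes a γ-glutamyl cyclotransferase that breaks down glutathione and is strongly induced through ATF4. Its signals were 1277.7, 1598.6, 1015.8, 1222.6 and 1744.1 in standard replicates 1 to 5 and 1171.6, 1484.0, 1038.9, 1608.7 and 1118.3 in cafeteria replicates 1 to 5. The means were 1371.8 ± 294.9 (SD, n = 5) and 1284.3 ± 247.8 (SD, n = 5), giving a log2 difference of −0.088, SE 0.167, with a 95% confidence interval from −0.46 to 0.28 (limma adjusted p = 0.869, exact permutation p = 0.619). Every cafeteria array lay inside the standard range. The difference turned to 0.0043 without standard replicate 5 and to 0.0020 with the acinar index as a covariate.

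The rest of the pathway was read from lists of named genes. ATF4 and its partner or feedback regulators had all differences on one side. On cafeteria arrays 8 of 8 tested members had the lower mean, against 48.6% of all probesets. Their median log2 difference was −0.19, against 0.0056 for all probesets. By limma 0 passed the adjusted test and 2 had an unadjusted p under 0.05, both lower. On that side stood 4.91% of all probesets. Members with the lowest p were the stress-induced factor gene Atf3 (−0.59, SE 0.218), Nupr1 (−0.68, SE 0.262), Cebpb, which encodes a C/EBP partner (−0.42, SE 0.2), and Atf5 (−0.23, SE 0.118), with limma adjusted p from 0.422 to 0.517. Atf4 itself differed by −0.093 (SE 0.108), from a signal of 11553.1 ± 1321.5 (SD, n = 5) to 10826.0 ± 1231.7 (SD, n = 5), Ddit3, which encodes CHOP, by −0.16, SE 0.168, and Trib3, a feedback inhibitor of ATF4, by −0.10, SE 0.193. Atf3 is also an immediate early gene, and the 9 immediate early genes tested were all lower, with a median of −0.46 (limma, 0 past the adjusted test and 4 at an unadjusted p under 0.05); their mean log2 value per array ran from 9.93 to 10.75 on standard and from 9.88 to 10.14 on cafeteria arrays, and their part in the Atf3 value was not tested.

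Upstream, of 16 genes for eIF2, its kinases, its exchange factor eIF2B and their regulators, 11 were higher and 5 lower, with a median of 0.090. Of all probesets 51.4% were higher, and 5.51% were higher with an unadjusted p under 0.05 (limma). Gcn1, which activates the amino acid sensing kinase, differed by 0.33, SE 0.134, the endoplasmic reticulum kinase gene Eif2ak3 (PERK) by 0.20, SE 0.0956, Ppp1r15b, which encodes a regulatory subunit of an eIF2 phosphatase, by −0.19, SE 0.0934, Eif2b1 by 0.14, SE 0.0938 and the amino acid sensing kinase gene Eif2ak4 (GCN2) by 0.19, SE 0.15. None of these 16 genes passed the adjusted test (lowest adjusted p = 0.444 by limma, 1 with an unadjusted p under 0.05, on the higher side). Transcript levels say nothing of whether eIF2 was phosphorylated.

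Downstream lists differed in how many genes were higher, beside 51.4% of all probesets. For the cytosolic aminoacyl-tRNA synthetases, which load amino acids onto tRNA, 15 of 19 were higher (median 0.056), among them Tars1 (0.22, SE 0.0926), Farsa (0.17, SE 0.0899), Gars1 (0.14, SE 0.0802) and Farsb (0.21, SE 0.139). All 7 tested serine and one-carbon enzyme genes were lower (median −0.083), with Mthfd2, a mitochondrial folate enzyme, at −0.22, SE 0.193, Shmt1 at −0.19, SE 0.186, Mthfd1 at −0.083, SE 0.0844 and Psph at −0.071, SE 0.0823. Of 7 tested members among 13 other stress-induced targets 4 were higher and 3 lower (median 0.025), including the proline synthesis gene Aldh18a1 (0.18, SE 0.0866), Vldlr (−0.16, SE 0.0826), Ddit4 (−0.20, SE 0.111) and Sesn2 (0.052, SE 0.0741). Glutathione genes had 5 of 8 higher (median 0.12), with Gclc at 0.19, SE 0.121, Gpx4 at 0.12, SE 0.0819, Gss at 0.14, SE 0.129 and Chac2, a relative of Chac1, at −0.093, SE 0.099. Across these 4 lists 0 genes passed the adjusted test by limma (lowest adjusted p = 0.46), and 1, Tars1, had an unadjusted p under 0.05.

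Amino acid transporters outside the 10 genes were more often higher than lower, at 8 of 13 tested (median 0.12), against 51.4% of all probesets. By limma 0 passed the adjusted test (lowest adjusted p = 0.444), and 2 had an unadjusted p under 0.05, both higher. On that side stood 5.51% of all probesets. Slc38a5, which encodes the glutamine carrier SNAT5, read 17543.9, 17098.0, 17294.0, 17159.5 and 16120.9 on standard replicates 1 to 5 and 17568.0, 20411.9, 20976.2, 19076.8 and 29188.8 on cafeteria replicates 1 to 5. Every cafeteria array was above every standard array, though cafeteria replicate 1 only just, and the log2 difference was 0.31, SE 0.123 (limma adjusted p = 0.444, exact permutation p = 0.00794). Slc6a17 did not overlap either, from 4354.1 to 4710.7 on standard and 4891.4 to 5187.2 on cafeteria arrays (0.12, SE 0.0636, limma adjusted p = 0.512). Groups did not overlap for 2.44% of all probesets. Slc7a6, an arginine and leucine exchanger that pairs with the Slc3a2 heavy chain, differed by 0.29, SE 0.132 and the taurine transporter gene Slc6a6 by −0.14, SE 0.086.

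**Figure D3:**
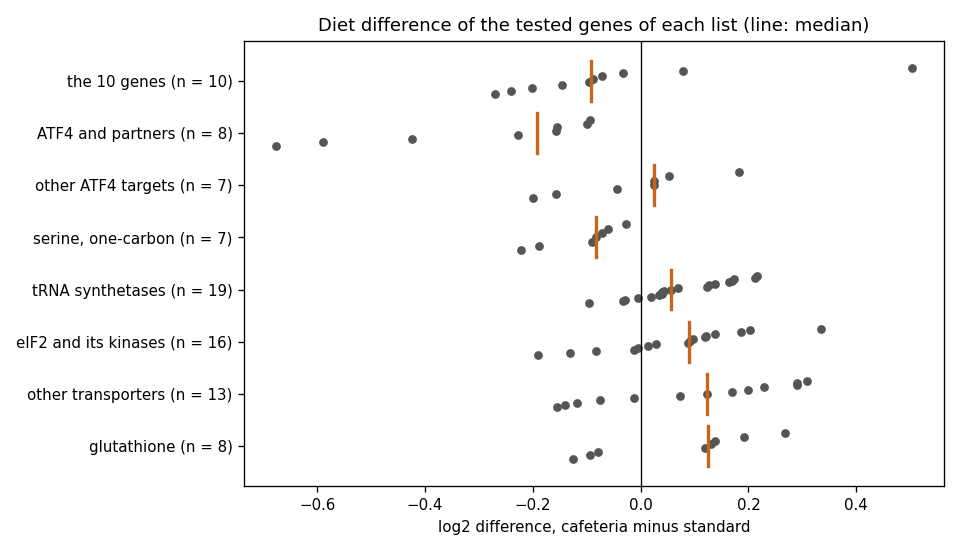
log2 difference between cafeteria and standard arrays for each tested gene of 8 lists (points; orange line, median). The medians lie between −0.19, for ATF4 and its partners, and 0.12, for other transporters and glutathione genes.

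Apart from diet, several of the 10 genes varied together from array to array. To describe this, each diet group's mean was subtracted from the log2 values and Pearson correlations were taken over the 10 arrays. The arrays share a scaling step, and values so centred hold fewer free comparisons than 10, so the correlations are given without p-values. Of the 45 pairs of the 10 genes 10 (22.2%) had r above 0.5, against 10.3% of all 53050150 pairs of tested genes, and the median r was 0.24 against 0.00080. The pairs were not all alike: Asns and Psat1 had r = 0.76, Asns and Chac1 0.73, Chac1 and Psat1 0.72, Slc7a1 and Chac1 0.67, Slc7a1 and Asns 0.66 and Slc7a1 and Slc1a4 0.75. Spearman's rho for these pairs was 0.66, 0.66, 0.77, 0.59, 0.56 and 0.83. With any 1 array left out the lowest r of the same pairs was 0.61, 0.63, 0.59, 0.56, 0.52 and 0.59. Slc3a2 and Chac1 had r = 0.68, with a lowest value of 0.61. Slc7a11 and Slc1a5 stood outside this set, with r of 0.15 and −0.29 with Chac1. Slc38a2 had r = 0.55 with Slc7a1 and 0.49 with Psat1, but 0.22 with Chac1 and 0.32 with Asns. Without cafeteria replicate 5 its r with Asns was −0.31. Slc7a5 and Slc1a4 each had r = 0.43 with Chac1, but 0.15 and 0.21 with Asns and −0.10 and 0.094 with Psat1. The Slc7a1 correlations are those of its brightest probeset alone. Its next probeset deviated from its group's mean in the opposite direction on standard replicates 2 and 3 and cafeteria replicates 1 and 3. On standard replicate 3 it stood at 0.16, against −0.18 for the brightest probeset and −0.40 for Chac1. On the other arrays the 2 probesets deviated in the same direction. Correlations of the next probeset were not calculated.

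**Figure D4:**
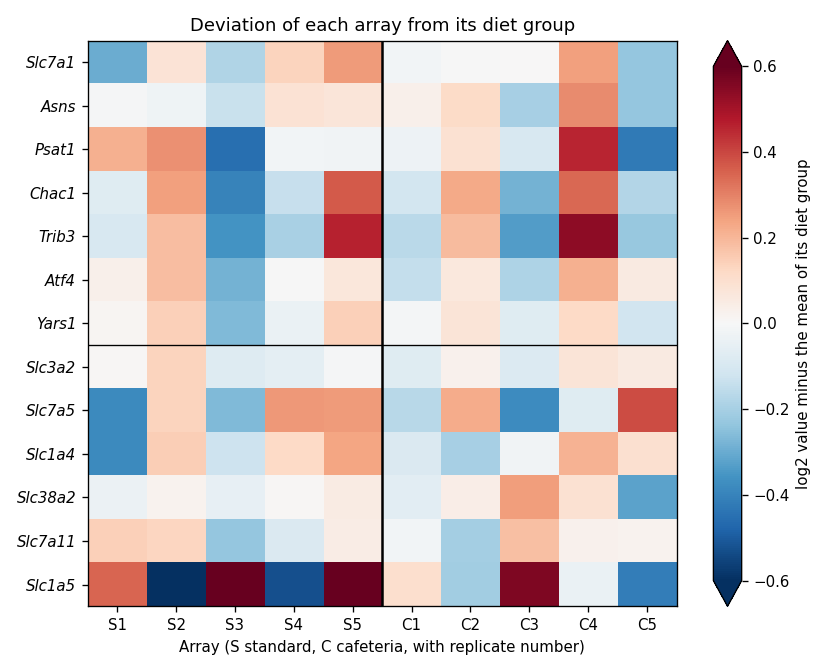
Deviation of each array from the mean of its diet group, in log2 units, for 13 genes in 10 arrays (S standard, C cafeteria; values beyond 0.6 take the end colour). Chac1, Trib3, Atf4 and Yars1 lie above their group's mean on standard replicates 2 and 5 and cafeteria replicates 2 and 4 and below it on standard replicate 3 and cafeteria replicate 3; Slc1a5 follows another order.

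Chac1 was followed most closely by the pathway's own feedback gene. Over 10300 other genes, Trib3 had the highest r with Chac1 through the brightest of its 3 probesets, a type whose probes can match several transcripts, at 0.97 (Spearman's rho 0.98). Trib3 read 260.1, 319.6, 214.7, 242.5 and 389.4 on standard replicates 1 to 5 and 230.3, 297.9, 203.0, 382.6 and 219.6 on cafeteria replicates 1 to 5, so both genes peaked on standard replicate 5 and cafeteria replicate 4. Leaving out those arrays, the farthest of Chac1 from its median, gave r = 0.99, and leaving out any 1 array gave at least 0.96. The other probesets of Trib3 followed Chac1 less closely, with r = 0.67 and 0.48. Rnh1 stood at rank 2 of the same order, with r = 0.94. The tyrosine and cysteine tRNA synthetase genes Yars1 and Cars1 stood at ranks 3 and 7, with r = 0.93 and 0.92, and Atf4 at rank 73 with r = 0.84. Ddit3 was less alike (r = 0.48). The ranking of Chac1 was added after its values were seen.

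The tRNA synthetases as a list followed the same arrays. All 19 correlated positively with Chac1 (median r = 0.55 against 0.035 for all genes) and with Asns (median 0.41 against 0.0065), and their mean per array had r = 0.93 with Chac1. The mean of the 8 serine and one-carbon enzyme genes had r = 0.90 with Chac1. Of the 7 of these that were tested, 5 correlated positively with Chac1, with a median r of 0.58 and a lowest of −0.073. For the mean of eIF2, its kinases, eIF2B and their regulators r was −0.49. Gene by gene, 9 of these 16 genes correlated positively with Chac1. Their median r was 0.070, against 0.035 for all genes. Markers of acinar cells, which make digestive enzymes, varied in the same sense: all 14 correlated positively with Chac1, with a median r of 0.53. The islet endocrine markers went the other way, with 2 of 10 positive for Chac1 and 1 of 10 for Asns. So did the immune markers, with 0 of 12 positive for Chac1 (median r = −0.31) and 0 of 12 for Asns (median −0.34). What part differing cell content has in these correlations was not tested. With the acinar index removed along with the diet means, the r of Chac1 with Trib3 was 0.97, with Yars1 0.94, with Asns 0.67 and with Psat1 0.73. With the GAPDH ratio removed instead these were 0.97, 0.90, 0.68 and 0.57, and Slc7a1 and Chac1 went from 0.67 to 0.46, below 0.5.

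**Figure D5:**
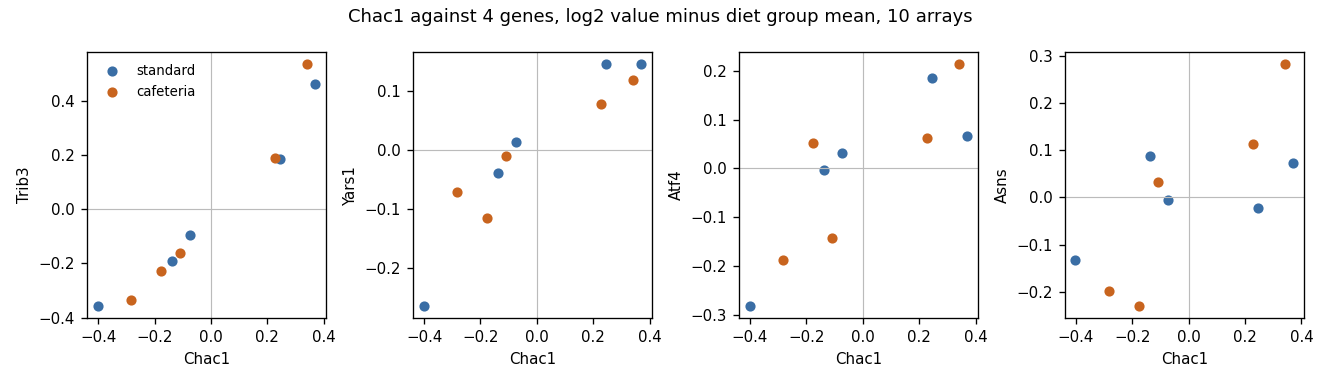
Chac1 against Trib3, Yars1, Atf4 and Asns on 10 arrays, each as log2 value minus the mean of its diet group (blue standard, orange cafeteria). Points of both diets lie along 1 rising line for Trib3 (r = 0.97) and scatter more for Asns (r = 0.73).

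The genes whose pattern was most like that of Asns were Sox18 (r = 0.92), Kcnk12 (0.91) and Med13 (0.91), and those most like Slc3a2 were Tax1bp1 (0.95), Kdelr2 (0.94), which encodes a receptor that returns proteins to the endoplasmic reticulum, and Tmem167b (0.94). Slc7a5, ranked after its values were seen, was closest to Scamp4 (0.97) and to Calr (0.96), which encodes the chaperone calreticulin. Anxa6 stood at rank 3 (0.96) and Ganab, a glucosidase of glycoprotein folding, at rank 4 (0.96). Slc7a5 and its heavy chain gene Slc3a2 had r = 0.43. Correlations of this size were common among 10300 genes over 10 arrays: the nearest gene of each of the 10 had r from 0.92 to 0.97.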

How the data were processed

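Gene expression was measured in rat islets on 10 arrays, 5 for each diet. The deposited table holds linear intensity values, and MAS5 is named, without a version, per the submitters' processing notes; the authors' scaling shows in trimmed means (2% off each end) between 500.14 and 500.16 on every array. It held 31099 probesets, 57 of them controls, and no detection calls, so it is not known which dim readings exceed background, and the number of arrays limits the precision. The genome build behind the probesets is not given in the sources used here. Of the non-control probesets 20826 had 1 gene symbol in the supplied platform annotation, 436 several and 9780 none.

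Signals were transformed as log2(value + 14.15), the pseudocount being the 10th percentile of all values, which makes fold changes on this scale too small for dim genes. Probesets above the 40th percentile of mean log2 value were tested with limma 3.58.1 (R 4.3.3; lmFit, eBayes), cafeteria against standard, with Benjamini-Hochberg adjustment over all 18625 and a threshold of 0.05. The model was run on simulated data with independent noise in each probeset, which cannot test for variation shared between probesets. A gene is described by its brightest probeset. Named genes are the 10 genes, up to 4 of each list with the lowest p, 5 core pathway genes, and the 3 genes most like Asns and Slc3a2. Yars1, Cars1, Rnh1, Scamp4, Calr, Anxa6, Ganab, Emp1 and the markers Ins1, Gcg, Cd74 and Lyz2 fall outside that rule and were chosen once their values had been seen. The 10 genes and the lists were chosen with earlier results of these data known. The limma p-values set the diet difference against the spread between these samples within each diet group. In eBayes that spread is drawn towards a value shared by all probesets tested (3.11 prior beside 8 residual degrees of freedom). Alternatives covered the pseudocount, the filter, normalization by quantiles or by medians, a trended robust variance, weighted arrays, a replicate block, 3 covariates, the mean of a gene's probesets, leaving out probesets open to cross-hybridisation, and leaving out each array; those for correlations were chosen after seeing the data.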

Additional observations from a re-analysis of the deposited data

Results flagged for a closer look

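Among 130 groups of 5 arrays (the 10 genes, the named pathway genes, the list means and the GAPDH ratio), 4 had 1 array whose gap to the next passed Dixon's critical value, which chance alone does in about 1 in 20 groups, here 6.5; none of the 4 was among the 10 genes. On the log2 scale, Atf5 was highest on standard replicate 5 at 12.30, against 11.74 to 11.84 on the others. Ddit4 was lowest on standard replicate 3 at 9.29 (others 9.57 to 9.67), and so was Farsb at 9.87 (others 10.54 to 10.59). The immune marker index was highest on cafeteria replicate 3 at 9.07 (others 7.44 to 7.77), the cafeteria array on which Slc1a5 was also highest, at a signal of 287.6.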

How the results depend on the processing

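Over the 23 alternatives run on the 10 genes, 10 of which left out an array, 0 of the genes passed the adjusted threshold (lowest adjusted p 0.306), and between 7 and 9 of them were lower in the cafeteria group. Of 228 single-gene values 223 kept their sign and 5 turned. With an array left out Slc3a2 ran from −0.051 to 0.0016 (without standard replicate 2), Slc1a4 from −0.016 (without standard replicate 1) to 0.14 and Chac1 from −0.19 to 0.0043 (without standard replicate 5). With a covariate Slc1a4 turned to −0.093 (GAPDH ratio) and Chac1 to 0.0020 (acinar index). None passed to begin with, so a threshold not passed again shows no stability. The median difference of the 10 genes ran from −0.17 to −0.066 when 1 array was left out. It was −0.26 once the GAPDH ratio entered the model, against −0.0068 for all probesets. The cause was not tested. Leaving out an array gave between 0 and 1 probesets past the threshold, the 1 being a probeset of Emp1 without standard replicate 2. Median centring moved the median of all probesets to −0.032. Replicate numbers were not taken to pair the samples: the deviations of same-numbered arrays correlated with r from −0.0017 to 0.30, above 0.1 for 3 of 5 pairs, and 2 of 5 standard arrays correlated best with their own number. With the replicate number as a block 0 probesets passed (2349 against 1941 at an unadjusted p under 0.05), and the median of the 10 genes was −0.092; of the 10 genes Slc7a5 then had an unadjusted p under 0.05 (limma, 0.0316, adjusted 0.369) and Slc38a2 did not (0.0586, adjusted 0.408). Dim signals limit Slc1a5 and Slc7a11: both fell below a filter at the 70th percentile.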
